A study of Columba livia with 10 samples.

Results

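Glutamate is the main excitatory transmitter of the brain, and 9 of its receptor genes were examined here in the cerebellum of racing homers, pigeons bred and trained to fly back to their loft. The genes were taken by name as AMPA, NMDA and metabotropic receptor members, with earlier results of these data known. All 9 were found among the 22547 genes of the count tables. They were GRIA1, GRIA2, GRIA3 and GRIA4 of the AMPA class, GRIN2A and GRIN2B of the NMDA class, and GRM3, GRM4 and GRM5 of the metabotropic class. The race group held 5 birds sampled on their return from a 300 km competition flight. The control group held 5 birds of matching age that spent the day resting at home. Birds of both groups came from 1 loft, ate by the competition schedule and were trained by the widowhood method, and the labels give neither age nor sex. Cerebellum was dissected from each bird and its total RNA was read as 100 bp pairs.

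AMPA receptors are ion channels assembled from several subunits that carry most fast excitatory current, and the GRIA2 subunit, after its messenger RNA is edited, keeps calcium out of the channel. NMDA receptors need the obligatory subunit encoded by GRIN1 beside partners such as those of GRIN2A and GRIN2B, and the partners set the speed and calcium entry of the channel. Metabotropic receptors act through G proteins. In mammals GRM5 belongs to the group that raises calcium through phospholipase C, GRM3 to a group that lowers cyclic AMP and is found in glia as well as neurons, and GRM4 sits on the parallel fibre endings of granule cells. Mammalian cerebellum lowers GRIN2B and raises GRIN2A as granule cells mature, and its Bergmann glia carry GRIA1 and GRIA4.

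The gene counts summed to between 17953704 and 23344086 per library. No 2 libraries agreed within sampling noise, the lowest chi-square per gene over 45 pairs being 26.0. Each library is labelled as a separate bird, so the spread below is that between birds. The table names and sample titles carry different library numbers in 9 of the 10 samples. With titles as the link 6 tables would switch between race and control. Control 3, control 4 and control 5 would become race, and race 1, race 2 and race 3 would become control. Each table was read with the treatment given in its own record, and which link is right was not settled here. W-linked genes, which female birds carry, reached 1 CPM (read counts scaled to the library's size) in 93 to 95 of 195 cases in control 3, control 4 and control 5, and in 24 to 33 cases in the other 7 libraries, so W-linked expression and group cannot be told apart in full. RefSeq's table for bColLiv1.pat.W.v2 places 0 of the 9 receptor genes on Z or W.

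Control 4 stood apart by genes of the forebrain. Of 10 forebrain neuron markers, all reached 1 CPM in control 4, with a summed level of 357 CPM. In the other 9 libraries 2 to 6 of them did, with sums of 30.5 to 52.3 CPM. TBR1, a transcription factor of cortical neurons, stood at 76.4 CPM in control 4 and at 0.378 to 2.59 CPM elsewhere. The summed level of 7 granule cell markers was 1039 CPM in control 4 and 1533 to 2211 CPM in the others. The markers of granule cells, Purkinje cells and glia that the tables hold reached 1 CPM in every library. In bulk tissue fewer cells of a type and less RNA per cell cannot be told apart.

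No receptor gene passed the test between race and control birds. With edgeR (quasi-likelihood, p-values adjusted by Benjamini-Hochberg across 14172 genes) 0 of the 9 passed at 0.05, and 0.0% of all genes did. DESeq2 called 0 of the 9 and 1.84% of all genes. Limma voom called 0 of the 9 and 0.0% of all genes, with 11.7% of all genes at an unadjusted p under 0.05. At that unadjusted level edgeR had 1 receptor gene higher in race birds, GRIA2, and 1 lower, GRM3, while 13.3% of all genes reached it, 6.19% higher and 7.14% lower. The log2 fold changes were positive for 5 of the 9 and negative for 4, with a median of 0.074. Over all genes 47.4% were positive and the median was -0.026. Race and control values overlapped for all 9 genes, whereas 4.33% of all genes showed no overlap. Without control 4, 0 of the 9 passed and 0.00699% of all genes did. The median was then 0.24, against 0.0073 over all genes, and 6 of the 9 were positive, against 50.6% of all genes. Without control 1 the receptor median was -0.082. With groups by title 0 of the 9 passed, against 0.0212% of all genes. The SD was larger among control than among race libraries in all 9 genes, and the share of all genes where this held was not worked out. Control 1 was the lowest library in 32.4% and the highest in 31.4% of all genes tested.

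**Figure D1:**
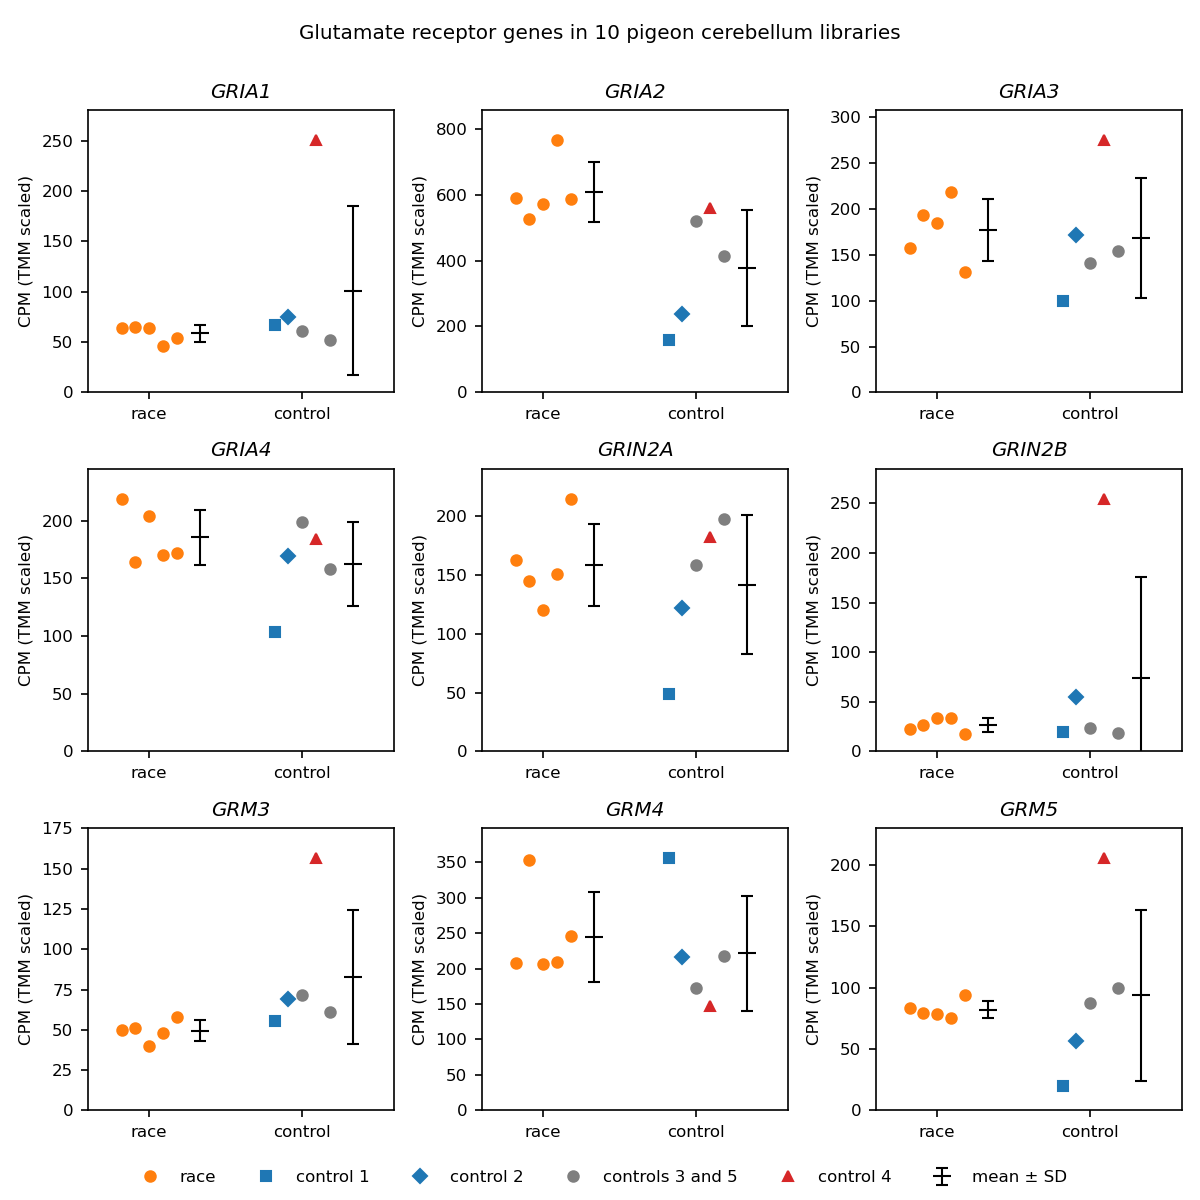
CPM scaled by the TMM factors, for each of the 9 receptor genes, with race libraries on the left and control libraries on the right of each panel; black bars are the mean ± SD of 5 libraries, cut at 0 for GRIN2B. Control 4 is the highest library for GRIA1, GRIA3, GRIN2B, GRM3 and GRM5, and control 1 is the lowest for GRIA2, GRIA3, GRIA4, GRIN2A and GRM5.

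GRIA2, which encodes the subunit that limits calcium entry in AMPA channels, stood at 589, 527, 572, 765 and 587 CPM in race 1 to race 5, against 158, 237, 518, 560.3 and 415 CPM in control 1 to control 5. The race libraries were all high, controls 3 and 4 came within or just below their range, and controls 1 and 2 lay below all other 8 libraries. The means were 608 ± 91.1 CPM in race and 378 ± 175 CPM in control libraries (SD, n = 5 each). In log2 terms the fold change was 0.69 ± 0.31 (SE, adjusted p = 0.368). Without control 4 the groups no longer overlapped and the log2 fold change was 0.87 ± 0.31 (adjusted p = 0.284). With the same library removed 3.92% of all genes had every race value above every control value. Over the 18 alternatives the adjusted p of GRIA2 ran from 0.00992 to 0.547.

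The value for GRIA2 depended on which controls were kept. Against control 1 and control 2 alone, the controls with low W-linked expression like that of the race birds, it was higher in race birds by a log2 of 1.62 ± 0.25 (adjusted p = 0.00992). That comparison called 23.2% of all genes, with 10.5% of all genes higher in race birds, and rested on 2 control libraries. Against control 3, control 4 and control 5 alone the value was 0.27 ± 0.15 (adjusted p = 0.370), and 0.727% of all genes but 0 of the 9 passed. Controls 1 and 2 both lay below the other 8 libraries in 17.6% of all genes tested, GRIA2 and GRM5 among them. In control 1 the genes spanning 90 to 270 kb with introns, these 2 included, deviated from the other libraries by a median log2 of -0.75. In control 2 the same genes deviated by only -0.083. The part of gene span in the comparison with controls 1 and 2 was not tested.

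Of the other AMPA genes, GRIA1 was set apart by 1 library. It had 63.7, 65.2, 63.7, 46.0 and 54.0 CPM in race libraries, against 67.0, 74.8, 61.0, 250.3 and 52.2 CPM in control libraries. Control 4 was 3.35 times the next highest library, and the other 4 controls covered much the same range as the race birds. The log2 fold change of -0.79 ± 0.40 (adjusted p = 0.403) became -0.12 ± 0.17 without control 4 (adjusted p = 0.715, range over the alternatives 0.240 to 0.715). GRIA1 encodes a subunit prominent at forebrain synapses.

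GRIA3 and GRIA4 encode subunits that assemble with the GRIA2 product, and GRIA4 is known for fast channels in the hindbrain. GRIA3 had 158, 193, 185, 219 and 131 CPM in race libraries, against 99.9, 171, 141, 275 and 154 CPM in control libraries. Race values lay inside the control range. Its log2 fold change was 0.074 ± 0.25 (adjusted p = 0.905), and 0.32 ± 0.21 without control 4 (adjusted p = 0.432, range over the alternatives 0.303 to 0.979). GRIA4 had 219, 164, 204, 170.2 and 172 CPM in race libraries, against 104, 169.6, 199, 184 and 158 CPM in control libraries. It was the steadiest of the 9 genes, spanning a log2 of 1.08, with control 1 alone well below the rest. Race over control came to a log2 of 0.19 ± 0.19 with all libraries (adjusted p = 0.630) and 0.24 ± 0.20 without control 4 (adjusted p = 0.543, range over the alternatives 0.182 to 0.945). Without control 1 it was 0.047.

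Among NMDA subunits, GRIN2A is a partner found in mature cerebellar granule cells of mammals. It had 163, 144, 120.4, 151 and 214 CPM in race libraries, against 49.0, 122, 159, 182 and 197 CPM in control libraries. Control 1 was lowest and the remaining 9 libraries mixed. The log2 fold change was 0.16 ± 0.31 (adjusted p = 0.826), 0.27 ± 0.33 without control 4 (adjusted p = 0.685) and -0.20 ± 0.17 without controls 1 and 2 (adjusted p = 0.588, range over the alternatives 0.0899 to 0.982). Without control 1 it was -0.073.

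GRIN2B, the partner of immature synapses and of the adult forebrain in mammals, varied most of the 9 genes, over a log2 of 3.89. It had 22.4, 26.4, 33.4, 33.6 and 17.1 CPM in race libraries, against 19.6, 54.6, 23.7, 254 and 18.9 CPM in control libraries. Control 4 was 4.66 times the next highest library and 10.7 times the median of the other 9. The log2 fold change was -1.48 ± 0.68 with all libraries (adjusted p = 0.375) and -0.14 ± 0.34 without control 4 (adjusted p = 0.850, range over the alternatives 0.198 to 0.850). Control 2 was then the highest library and race 5 the lowest, and the groups overlapped.

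GRM3 had the smallest p of the 9. It stood at 49.9, 51.0, 39.7, 48.1 and 58.1 CPM in race libraries, against 55.4, 68.8, 71.8, 156 and 61.3 CPM in control libraries. Only race 5 and control 1 crossed: race 5 exceeded control 1, and each other race library lay below every control. The means were 49.4 ± 6.59 CPM in race and 82.7 ± 41.7 CPM in control libraries (SD, n = 5 each). The log2 fold change was -0.75 ± 0.27 (adjusted p = 0.328), and -0.38 ± 0.16 without control 4 (adjusted p = 0.323), where the control mean was 64.3 ± 7.41 CPM (n = 4). Race birds had the lower value in 17 of 18 alternatives, with log2 fold changes of -0.98 to -0.33. With groups taken from the sample titles it was 0.58, the other direction, and the adjusted p over all 18 ran from 0.123 to 0.523. The astrocyte and Bergmann glia marker list, 8 genes, summed to 1414 to 2047 CPM in race and 1876 to 3612 CPM in control libraries. Without GFAP, whose log2 fold change was -1.34, the other 7 summed to 819 to 1716 CPM in race and 938 to 1650.1 CPM in control libraries. Of the 8 glial markers 6 were negative and 0 passed. Beside GFAP, HEPACAM stood at -0.99, S100B at -0.70 and GDF10 at -0.21, while SLC1A2, SLC1A3, AQP4 and GJA1 stood between -0.058 and 0.098. Oligodendrocyte markers summed to 1789 to 4067 CPM in race and 2557 to 5787 CPM in control libraries, with 6 of 6 negative and 0 passing. The part of glial RNA in the GRM3 values was not tested.

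GRM4, the receptor of granule cell endings, had 208, 354, 207, 209 and 245 CPM in race libraries, against 355, 216, 172, 147 and 217 CPM in control libraries. Race 2 and control 1 were high and control 4 was lowest, the library that was highest in 5 of the other receptor genes. In log2 terms race over control was 0.14 ± 0.25 (adjusted p = 0.806), 0.025 ± 0.25 without control 4 (adjusted p = 0.964, range over the alternatives 0.315 to 0.969) and -0.029 without race 2.

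GRM5, whose product releases calcium from stores, had 83.7, 79.0, 78.2, 75.6 and 93.7 CPM in race libraries, against 19.9, 56.5, 87.9, 205 and 100.0 CPM in control libraries. The race values were close together and the controls ran from far below to far above them. Over all libraries the fold change was a log2 of -0.19 ± 0.44 (adjusted p = 0.851) and changed sign to 0.31 ± 0.36 without control 4 (adjusted p = 0.657). Without controls 1 and 2 it was -0.69 ± 0.24 (adjusted p = 0.178), with the race values overlapping the controls. Against control 1 and control 2 alone GRM5 was higher in race birds by a log2 of 1.10 ± 0.35 (adjusted p = 0.0469, over a range of 0.0469 to 0.897 in all 18 alternatives), in the comparison that called 23.2% of all genes.

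**Figure D2:**
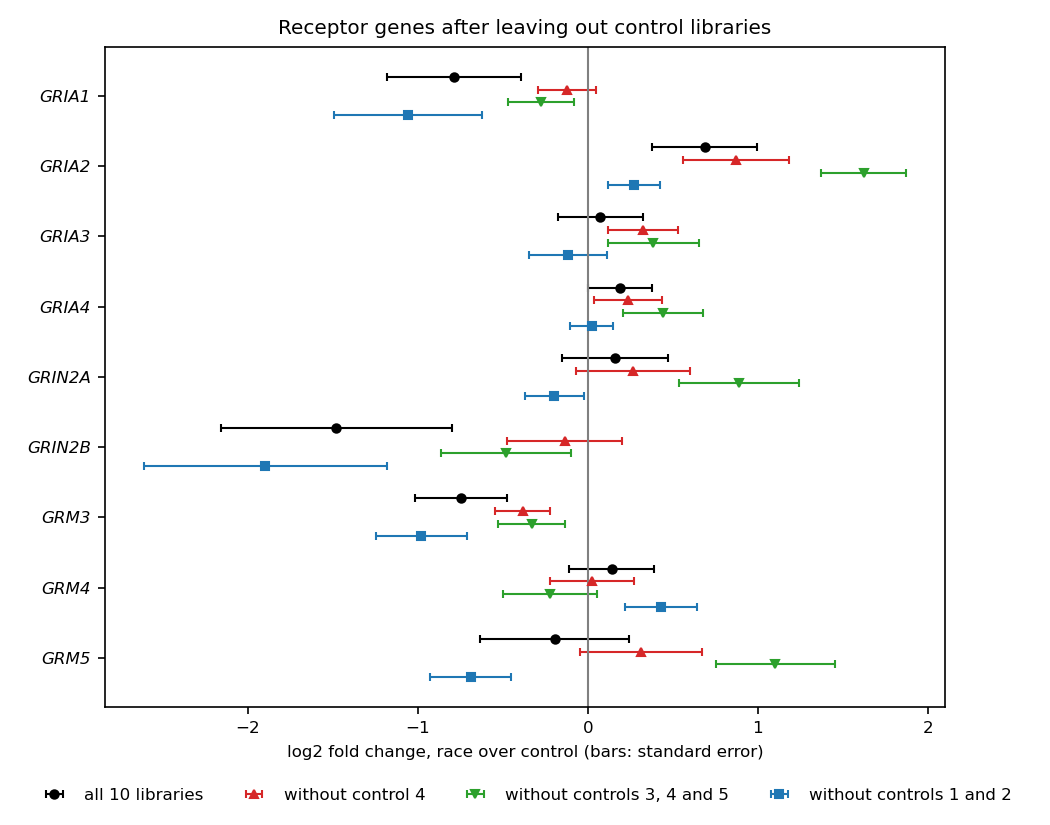
Log2 fold change of race over control birds for each receptor gene with its standard error, with all 10 libraries and after leaving out control 4, controls 3 to 5, or controls 1 and 2. GRIA1 and GRIN2B move to near 0 without control 4, GRM5 changes side, and GRIA2 is largest, at 1.62, when only controls 1 and 2 are kept.

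Subunit balance was read as the share of a class's reads that fell on each gene, which does not depend on how libraries are scaled. Transcript lengths were not used, so shares are compared between libraries and not between genes. Within the AMPA class GRIA2 took 57.3%, 55.5%, 55.8%, 63.7% and 62.2% of reads in race libraries, against 36.8%, 36.4%, 56.4%, 44.1% and 53.2% in control libraries. Control 3 lay within the race range and the other controls below it. The means were 58.9 ± 3.80% in race and 45.4 ± 9.21% in control libraries (SD, n = 5 each), a difference of 13.5 points, 13.2 points without control 4 and 7.66 points without controls 1 and 2. Shares were given no test.

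The share of GRIA1 was 3.83% to 6.86% in race libraries, with a median of 6.19%, against 15.6%, 11.5%, 6.63%, 19.7% and 6.70% in control libraries. Controls 3 and 5 were close to the race birds and the other controls were higher. In controls 1 and 2 the CPM of GRIA2 was low, and in control 4 that of GRIA1 was high. GRIA3 averaged 17.2 ± 2.55% in race and 21.3 ± 4.07% in control libraries, and GRIA4 averaged 18.2 ± 2.69% in race and 21.3 ± 4.41% in control libraries, with overlap in both. The summed AMPA level was 944 to 1200 CPM in race libraries, and in control 1 to control 5 it was 428, 653, 919, 1269 and 780 CPM.

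For the NMDA pair, GRIN2A took 87.9%, 84.5%, 78.3%, 81.8% and 92.6% of reads in race libraries, against 71.4%, 69.1%, 87.0%, 41.7% and 91.3% in control libraries. GRIN2C, an NMDA subunit named after its values were seen, was not counted in this pair. Its mean was 136 ± 7.09 CPM in race and 208 ± 182 CPM in control libraries. The GRIN2A share was lowest in control 4, where GRIN2B took 58.3%. The mean share was 85.0 ± 5.53% in race and 72.1 ± 19.5% in control libraries, or 79.7 ± 11.1% in control libraries without control 4, a difference smaller than the spread among controls. For the metabotropic trio GRM4 took 60.8% to 73.1% in race libraries with a median of 62.8%, against 82.5%, 63.3%, 51.9%, 28.8% and 57.4% in control libraries. The control values ran both above and below the race values, from control 1 at the top to control 4 at the bottom. GRM5 took 16.3% to 24.5% in race libraries, against 4.61%, 16.5%, 26.5%, 40.4% and 26.4% in control libraries. GRM3 took 10.5% to 14.6% in race libraries, against 12.9%, 20.1%, 21.6%, 30.8% and 16.2% in control libraries, and control 1 alone fell among the race values. Against controls 3, 4 and 5 alone, a choice made after seeing the data, the metabotropic shares no longer overlapped. Race minus control was then 18.4 points for GRM4, -8.85 for GRM5 and -9.57 for GRM3. Without control 4 the same differences were 0.664, 3.75 and -4.41 points, with overlap in all of them. Shares of a class sum to a whole, so these are not separate results. How often shares separate by this rule was not worked out. In CPM, only GRM3 was without overlap against controls 3, 4 and 5. The share of all genes without overlap against these controls is not given here, so GRM3 cannot be read as singled out.

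**Figure D3:**
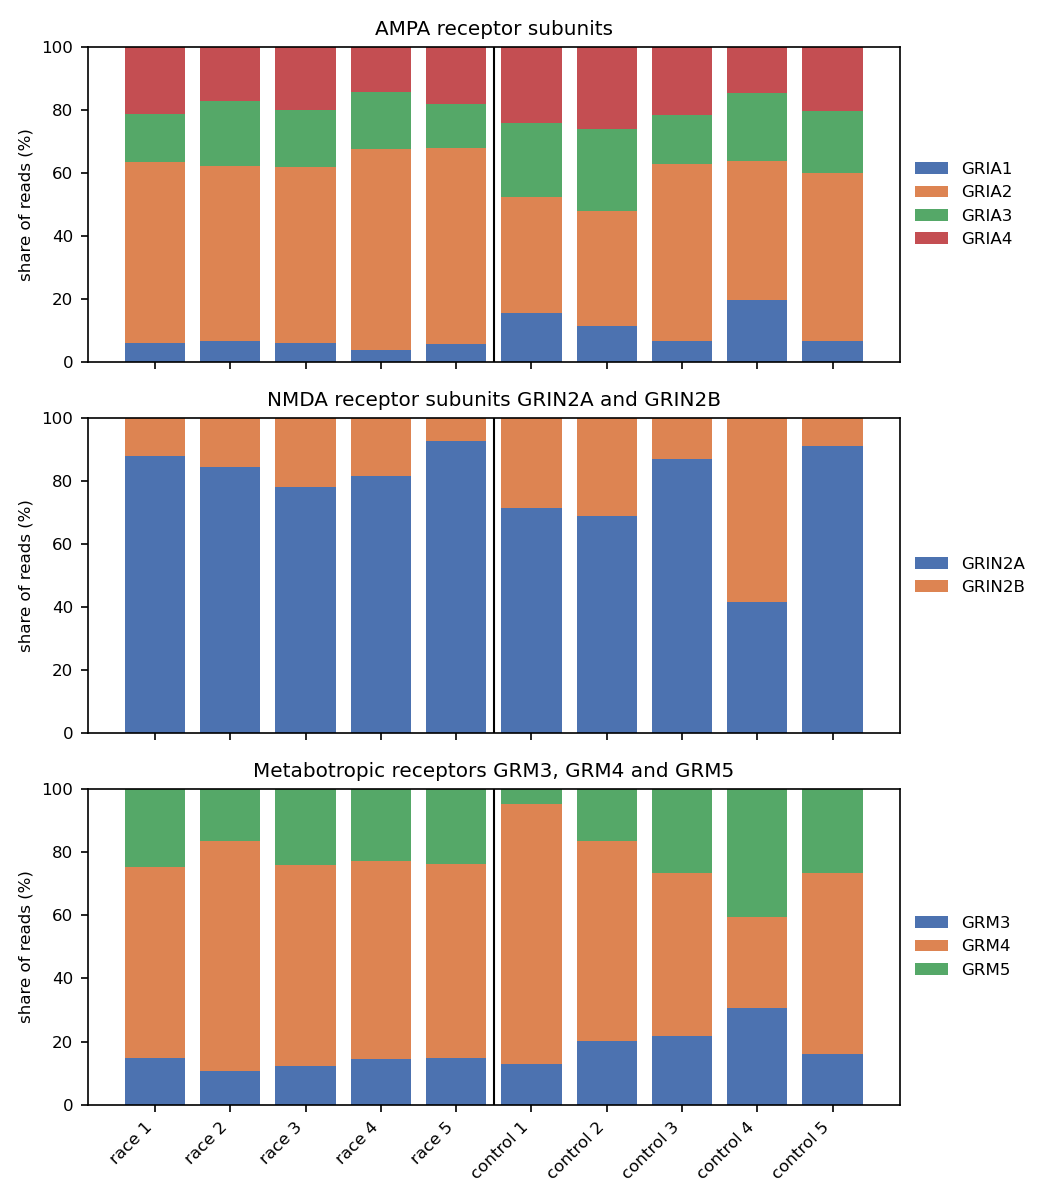
Share of reads on each gene within its receptor class, in percent, for race libraries left of the line and control libraries right of it. GRIA2 takes 55.5% to 63.7% in race libraries and 36.4% to 56.4% in controls, and the GRIN2A share is lowest, 41.7%, in control 4.

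The place of control 4 was then compared across the receptor machinery. Control 4 was at least 2-fold above every other library in 4 of the 9 receptor genes, GRIA1, GRIN2B, GRM3 and GRM5, and in 2.89% of all genes tested. It was the highest library in 5 of the 9, against 14.8% of all genes. The 9 genes were chosen with earlier results of these data known, so neither count can be read as an excess. The 2-fold gap held for 6 of 7 tested forebrain markers, for 0 of 7 granule cell markers and for 0 of 8 Purkinje cell markers. In the glutamate lists it held for 1 of 13 other glutamate receptor subunits, for 2 of 16 auxiliary subunits, for 4 of 20 scaffold and trafficking genes, for 2 of 6 genes of group I receptor signalling, for 0 of 9 genes of glutamate supply and uptake and for 0 of 3 editing enzymes. Named after their values were seen, these were GRIN3A, the AMPA receptor partner CACNG3, the kainate receptor partner NETO1, the scaffolds DLGAP2, HOMER2 and GRIP2, the kinase CAMK2A, the phospholipase PLCB1 and RGS8. CAMK2A, a calcium-dependent kinase abundant in forebrain, stood at 961 CPM in control 4 and at 29.1 to 99.6 CPM in the other 9 libraries. CACNG3 stood at 201 CPM in control 4 and at 10.6 to 62.6 CPM elsewhere. Also named after its values were seen, the cerebellar NMDA subunit GRIN2C was lowest in control 4, at 67.7 CPM, where the other libraries had at least 125 CPM. GRIN2C was highest in control 1, at 526 CPM. Of 8 Purkinje cell markers 1 was highest in control 4, PCP4, at 119 CPM against 20.4 to 72.6 CPM elsewhere. The part of forebrain tissue in the control 4 values was not tested.

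**Figure D4:**
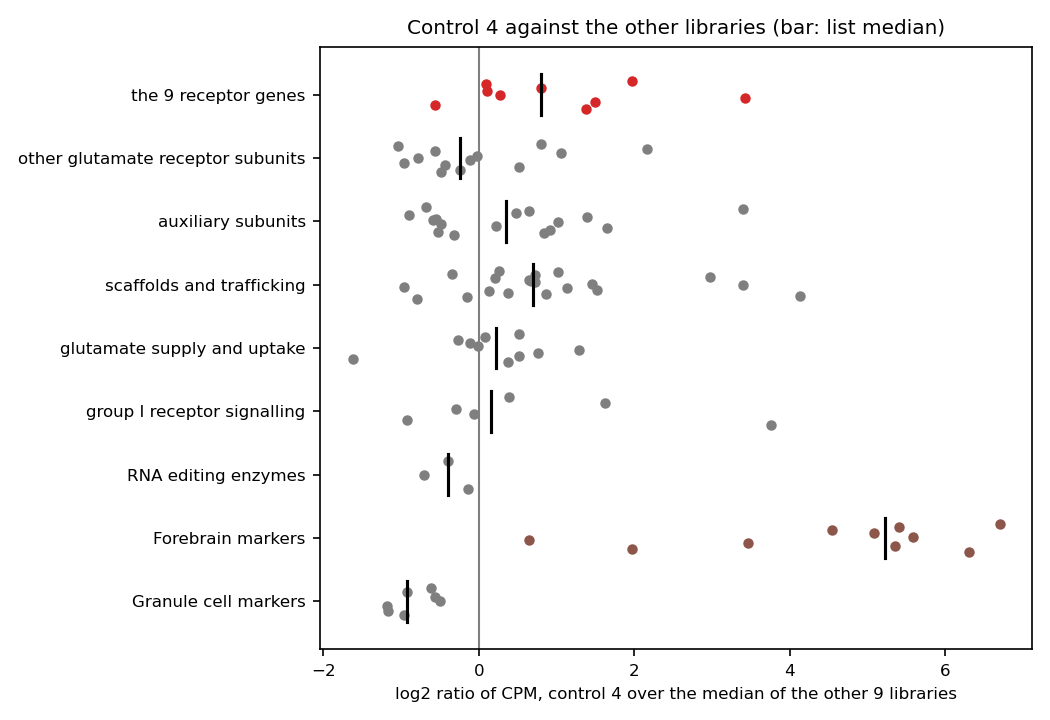
Log2 ratio of CPM in control 4 over the median of the other 9 libraries, 1 point per gene, by gene list; black bars are list medians. The 9 receptor genes have a median of 0.80, forebrain markers 5.22 and granule cell markers -0.92.

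Control 1 stood apart in another way. It was the lowest library in 5 of the 9 receptor genes and the highest in GRM4, against 32.4% and 31.4% of all genes. GRM4 has the shortest gene span of the 9, 36.5 kb with introns, and the others span 92.7 to 268 kb. In control 1 the 1381 tested genes with spans of 90 to 270 kb deviated from the mean of the other libraries by a median log2 of -0.75, and the 7481 genes under 20 kb by 0.39. In the other 9 libraries the long genes deviated by -0.083 to 0.16. With offsets for gene span the log2 fold change of GRIA2 was 0.60 and that of GRM4 was -0.064, so GRM4 changed sign. The RNA integrity number, a score of RNA quality, was given as a range of 9.6 to 10.0 for every library. The part of gene span in the control 1 values was not tested.

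The other genes of the glutamate pathway were looked up in lists of 84 symbols, of which 68 were in the tables and 67 were tested. With edgeR 0 passed in either direction, and at an unadjusted p under 0.05 there were 2 higher and 7 lower in race birds, where all genes had 6.19% higher and 7.14% lower. The remaining receptor subunits had a median log2 fold change of -0.20, with 4 of 13 positive. It was -0.23 with 6 positive without control 4 and -0.040 with 6 positive without control 1. GRM2, a presynaptic receptor of Golgi and unipolar brush cells in mammals, had 40.6, 65.7, 43.7, 40.0 and 34.7 CPM in race libraries, against 239, 99.5, 38.3, 62.7 and 63.0 CPM in control libraries. The race values lay below control 1 and control 2, and 4 of the 5 below control 4 and control 5 as well, while control 3 was within the race range. Its log2 fold change was -1.16 ± 0.43 (adjusted p = 0.328), -1.29 without control 4, -0.57 without control 1 and -0.30 without controls 1 and 2. GRIN1, the obligatory NMDA subunit, had 477, 702, 591, 766 and 448 CPM in race libraries, against 1506, 837, 514, 1032 and 576 CPM in control libraries, a log2 fold change of -0.58 ± 0.29 (adjusted p = 0.403). It was -0.52 without control 4 and -0.33 without control 1. GRIN1 was highest in control 1, the library where GRIN2A was lowest.

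Auxiliary subunits, which steer receptors to the synapse, had a median of -0.23 with 4 of 16 positive, or -0.10 with 7 positive without control 4. CNIH3, an AMPA receptor exporter, averaged 0.793 ± 0.363 CPM in race and 1.92 ± 0.742 CPM in control libraries, a log2 fold change of -1.27 ± 0.44 (adjusted p = 0.326) at a level of few reads. SYNDIG1, which promotes excitatory synapses, averaged 37.1 ± 12.1 CPM in race and 22.7 ± 5.78 CPM in control libraries, a log2 fold change of 0.71 ± 0.25 (adjusted p = 0.328). Without control 4 the log2 fold changes were -1.18 for CNIH3 and 0.69 for SYNDIG1. Scaffold and trafficking genes had a median of -0.26 with 3 of 20 positive, or -0.11 with 9 positive without control 4. The values of smallest p there were CAMK2A at -2.21, or -0.18 without control 4, and the scaffold DLGAP4 at -0.68. DLGAP4 was at -0.67 without control 4 and at -0.36 without control 1.

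Genes of glutamate supply and uptake had a median of 0.098 with 6 of 9 positive. It was 0.32 with 8 of 10 positive without control 4, 0.019 without control 2 and -0.068 without controls 1 and 2. SLC1A1, a neuronal glutamate transporter, averaged 58.9 ± 12.9 CPM in race and 44.6 ± 9.66 CPM in control libraries (log2 fold change 0.40 ± 0.20, adjusted p = 0.401), or 0.24 without race 4. The mitochondrial aminotransferase GOT2 stood at -0.49, or -0.11 without control 1. Without control 4 GOT2 was at -0.60 and SLC1A1 at 0.47. Genes acting below the group I receptors, to which GRM5 belongs, had a median of -0.094 with 3 of 6 positive, and without control 4 the median turned to 0.13. RGS8, a Purkinje cell regulator of G proteins in mammals, had 5.93, 9.15, 9.24, 23.7 and 13.0 CPM in race libraries, against 9.77, 29.0, 26.9, 175 and 30.4 CPM in control libraries. All controls but control 1 were above all 5 race birds. The log2 fold change was -2.15 ± 0.69 (adjusted p = 0.309), and -0.98 ± 0.42 without control 4 (adjusted p = 0.324). RGS8 was the 1 pathway gene DESeq2 called (adjusted p = 0.0383 by DESeq2, range over the alternatives 0.0383 to 0.521), where that tool called 1.84% of all genes. GNA11, the G protein subunit of this group, stood at -0.30, or -0.28 without control 4 and -0.16 without control 1.

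Editing enzymes were included because ADARB1 makes the change in GRIA2 messenger RNA that closes the channel to calcium. ADARB1 had 192, 236, 306, 322 and 228 CPM in race libraries, against 157, 219.7, 191, 135 and 216 CPM in control libraries. Race 1 lay within the control range and the other race libraries above it. The log2 fold change was 0.48 ± 0.20 (adjusted p = 0.350), and 0.39 ± 0.20 without control 4. ADAR stood at -0.42 with all libraries, at -0.56 without control 4, at -0.014 without control 1 and at 0.26 without controls 1 and 2. Counts do not show whether a transcript was edited.

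Last, the tested gene whose profile over the 10 libraries lay nearest to each receptor gene was found among 10820 named genes, by the root mean square difference in centred log2 CPM. For GRIN2A this was CDK6, a cell cycle kinase, at 0.0880, and for GRIA4 it was MKLN1 at 0.0874, with PANK1 next at 0.0879. RNF6 lay nearest to GRIA2 at 0.152, LPCAT2 to GRIA3 at 0.120, NUP214 to GRM4 at 0.125 and the orphan receptor GPR22 to GRM5 at 0.168. GRIA1 and GRM3 were nearest to ARHGAP20 and ADGRB1 at 0.184 and 0.213. GRIN2B lay farthest from its nearest gene, the kinase PRKCD, at 0.376. PRKCD stood at 38.2 CPM in control 4 and at 2.35 to 5.11 CPM elsewhere. ARHGAP20, LPCAT2, ADGRB1 and GPR22 were also highest in control 4. RNF6, LPCAT2, MKLN1, CDK6 and GPR22 were lowest in control 1, where NUP214 was highest. How near the nearest of 10820 genes would lie by chance was not worked out.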

How the data were processed

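RNA was measured by sequencing in 10 cerebellum libraries, 5 race and 5 control. Per the submitters' processing notes, fastp 0.23.2, STAR 2.7.10a and HTSeq 0.13.5 were among the tools; parameters, build and strand setting: not given in the sources used here. What the authors deposited is a table of whole read counts by gene for each library, not normalized. Rows that name no gene held 18.1% to 23.4% of counts and were left out. The filterByExpr rule, set to 10 counts, left 14172 genes, all 9 receptor genes among them. Counts were scaled by TMM and tested race against control with edgeR 4.0.16 (limma 3.58.1, R 4.3.3), quasi-likelihood, two-sided, adjusted by Benjamini-Hochberg over all genes at 0.05. Standard errors came from the fold change and F statistic. CPM uses TMM-scaled library sizes, and log2 CPM a prior count of 2. DESeq2 1.42.0 was an alternative. The test was checked on counts simulated with the same spread for every gene and no library set apart. That check does not cover libraries such as control 1 and control 4. Gene spans are from RefSeq for assembly bColLiv1.pat.W.v2, which matched 22268 of 22547 names. Exon lengths and sequences were not used, so shares are of plain reads. The receptor genes and all lists were chosen with earlier results of these data known. Named pathway genes are the 2 of smallest p in each list, others being marked as chosen after their values were seen. The fit without controls 1 and 2, and the gene span summaries, were added after seeing the data. Alternatives were RLE scaling, no filter, limma voom, gene span offsets, groups by title and leaving libraries out. Reads on overlapping or near-identical genes may be lost or, without a known strand setting, come from an antisense gene.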

Additional observations from a re-analysis of the deposited data

Results flagged for a closer look

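A library was marked where the gap to its nearest neighbour took up more than 0.71 of the range of its 5 libraries (Dixon's ratio). Of 58 groups examined 14 were marked. Chance gives about 1 in 20 for independent, normally distributed values, but these groups share libraries and the pathway genes were named for their small p. The rate over all genes was not worked out, so 14 cannot be read as an excess.

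Control 4 was the high library for GRIA1 at 250.3 CPM, GRIN2B at 254 CPM, GRM3 at 156 CPM, CAMK2A at 961 CPM and RGS8 at 175 CPM. Forebrain markers were high in the same library. Race 4 was the high race library for GRIA2 at 765 CPM, SLC1A1 at 82.0 CPM and GNA11 at 162 CPM. Race 2 was the high race library for GRM4 at 354 CPM and GRM2 at 65.7 CPM, and in it GRM4 took 73.1% and GRM5 16.3% of the reads of the metabotropic trio. Control 1 was the high control for GOT2 at 590.5 CPM, and control 2 the low control for CNIH3 at 0.624 CPM.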

How the results depend on the processing

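No receptor gene passed under RLE scaling, without a count filter, with DESeq2, limma voom, gene span offsets, title groups or any single library left out, and 0 passed without controls 1 and 2; 2 passed without the W-expressing controls (control 3, control 4 and control 5). The count over all genes was 261 (1.84%) with DESeq2, 3 (0.0212%) with groups by title and 106 (0.727%) without controls 1 and 2. It was 3416 (23.2%) without the W-expressing controls, and 0 to 1 with 1 library left out. Pathway genes passing were 1 of 67 with DESeq2, against 1.84% of all genes. Without the W-expressing controls 19 of 68 passed, against 23.2% of all genes. With groups by title the receptor median was 0.47 and signs turned for GRIA1 (0.47), GRIN2B (1.15), GRM3 (0.58), GRM4 (-0.44), GRM5 (0.83), CNIH3 (0.49), CAMK2A (1.77), RGS8 (2.09) and ADARB1 (-0.024). Gene span offsets turned GRIA3 (-0.020) and GRM4 (-0.064), and limma voom GRM5 (0.17). Without controls 1 and 2, GRIA3 (-0.12), GRIN2A (-0.20) and ADAR (0.26) turned. Without the W-expressing controls, GRM4 (-0.22) and GRM5 (1.10) turned, and the share differences in points were 22.3 for GRIA2, -7.62 for GRIA3, -6.93 for GRIA4, -8.50 for GRM4 and 11.7 for GRM5. By title they were -0.75 for GRIA1, 5.46 for GRM3, -16.2 for GRM4 and 10.7 for GRM5. Leaving out 1 library gave log2 fold changes of -0.082 to 0.32 for GRIA3, 0.047 to 0.27 for GRIA4, -0.073 to 0.31 for GRIN2A, -0.029 to 0.36 for GRM4 and -0.47 to 0.31 for GRM5. The causes were not tested. A prior count of 0.5 left 9 genes spanning more than a log2 of 1. Shares per exon length were not run. No paired analysis was possible because the labels number the birds 1 to 10 across both groups. CNIH3, near 1 CPM, is limited by depth.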
